A study of Mus musculus with 6 samples.

Results

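Complex I, the NADH dehydrogenase of mitochondria, is described here through 42 nuclear genes, of 54532 genes in the deposited count table. The members were chosen by name: the Nduf genes that encode subunits, without Ndufa4, and the Ndufaf genes that encode assembly factors. They comprise 35 subunits and 7 assembly factors, and all 42 passed the filter on low counts that kept 14715 genes for testing. The tissue was quadriceps, a thigh muscle, from mouse pups 10 days old. The Myf5Cre-Pcyt2 group had 3 pups in which a Myf5-driven Cre recombinase met floxed Pcyt2, and the control group had 3 Pcyt2 flox/flox pups, for which the labels name no Cre. All pups therefore carried the floxed allele, were fed chow and were housed under standard conditions. Pcyt2 encodes an enzyme of the CDP-ethanolamine route, which makes the membrane lipid phosphatidylethanolamine. Myf5-driven Cre acts in muscle precursors, and in mice it is also known to act in precursors of brown fat, so it does not limit recombination to muscle fibres. Litters are not named in the labels, and p-values therefore reflect only how much these 6 libraries vary.

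Complex I is the entry point of the respiratory chain: it takes electrons from NADH, hands them to ubiquinone, and pumps protons across the inner mitochondrial membrane. An L-shaped assembly holds an N module that oxidises NADH, a Q module that reduces ubiquinone, and a membrane arm that pumps. Core subunits carry out the chemistry and are shared with bacteria, accessory subunits surround them, and assembly factors join the modules together without staying in the finished enzyme. The membrane core subunits are encoded by mitochondrial DNA, so the enzyme draws on both genomes. Muscle fibres hold much of it because they rely on oxidative phosphorylation, and genes of the complex are known targets of NRF-1, GABP, ERR family receptors and YY1.

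Promoters of 38 of the 42 genes were available, each running from 250 bases before to 50 bases after the annotated start (RefSeq, GRCm38.p6). Ndufa2, Ndufb9, Ndufs1 and Ndufaf6 had no entry in the promoter table. The 5 windows printed here, 5′ to 3′ on the gene's strand, belong to genes that were lower in Myf5Cre-Pcyt2 muscle: Ndufs6, Ndufc1 and Ndufb8 show the YY1 letters, Ndufs8 the ETS letters, and Ndufaf5 the NRF-1 letters. Capitals mark matches to the letters searched for NRF-1, ETS, ERR or YY1.
Ndufs6, chr13:73328433-73328732, minus strand: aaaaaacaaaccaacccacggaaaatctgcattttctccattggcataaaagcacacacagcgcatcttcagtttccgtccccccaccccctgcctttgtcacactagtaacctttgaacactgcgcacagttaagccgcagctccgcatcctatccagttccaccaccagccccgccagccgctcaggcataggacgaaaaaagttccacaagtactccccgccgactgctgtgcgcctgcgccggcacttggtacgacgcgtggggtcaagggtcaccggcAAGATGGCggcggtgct
Ndufc1, chr3:51408906-51409205, minus strand: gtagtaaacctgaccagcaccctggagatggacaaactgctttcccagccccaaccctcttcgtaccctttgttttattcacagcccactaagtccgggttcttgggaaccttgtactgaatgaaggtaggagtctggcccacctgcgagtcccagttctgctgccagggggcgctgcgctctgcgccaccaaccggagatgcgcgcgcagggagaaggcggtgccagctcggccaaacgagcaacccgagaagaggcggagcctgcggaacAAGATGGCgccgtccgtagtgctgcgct
Ndufb8, chr19:44555393-44555692, minus strand: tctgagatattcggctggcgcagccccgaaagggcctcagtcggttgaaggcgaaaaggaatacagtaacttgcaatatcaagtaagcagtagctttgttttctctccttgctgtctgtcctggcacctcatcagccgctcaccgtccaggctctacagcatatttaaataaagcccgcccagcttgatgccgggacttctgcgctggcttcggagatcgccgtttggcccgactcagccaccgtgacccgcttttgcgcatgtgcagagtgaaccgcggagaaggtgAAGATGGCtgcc
Ndufs8, chr19:3912725-3913024, minus strand: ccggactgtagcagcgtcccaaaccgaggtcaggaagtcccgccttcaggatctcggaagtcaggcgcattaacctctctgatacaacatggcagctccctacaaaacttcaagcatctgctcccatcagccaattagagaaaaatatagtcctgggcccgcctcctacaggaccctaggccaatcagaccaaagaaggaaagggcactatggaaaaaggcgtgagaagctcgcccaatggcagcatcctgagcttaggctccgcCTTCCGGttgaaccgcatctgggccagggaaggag
Ndufaf5, chr2:140170396-140170695, plus strand: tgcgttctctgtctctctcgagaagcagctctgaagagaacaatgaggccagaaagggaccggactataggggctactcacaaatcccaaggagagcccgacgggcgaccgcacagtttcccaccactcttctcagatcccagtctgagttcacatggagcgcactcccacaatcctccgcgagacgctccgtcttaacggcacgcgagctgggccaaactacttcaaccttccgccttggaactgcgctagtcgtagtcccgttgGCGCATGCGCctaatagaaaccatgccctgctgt

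The letters AAGATGGC, read on both strands as a YY1 match, stood in 7 of the 38 member promoters (18.4%), against 2.75% of all 32851 promoters of the same length. The 7 were Ndufs7, Ndufs4, Ndufs6, Ndufa9, Ndufa3, Ndufc1 and Ndufb8. In each of them the letters lay on the gene's strand within the transcribed part, beginning between 23 and 39 bases from the start. The ATG inside the match was the annotated start codon in 7 of 7, so the YY1 letters and the beginning of the coding sequence are the same bases there. Of all promoters, 284 (0.865%) held these letters on the gene's strand wholly after the start. Members here and below are counted by gene, also where a gene has windows at different positions, as Ndufa5 does. The member shares and the shares of all promoters may therefore not be per the same unit.

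The NRF-1 letters GCATGCGC stood in 5 member promoters (13.2%), those of Ndufa6, Ndufa8, Ndufa11, Ndufaf4 and Ndufaf5, against 2.71% of all promoters. In Ndufa11, Ndufaf4 and Ndufaf5 a match on each strand overlaps the other. The ETS and GABP letters CCGGAAG stood in 5 (13.2%), those of Ndufs3, Ndufs8, Ndufb6, Ndufb7 and Ndufaf1, against 8.86% of all promoters. The ERR letters AAGGTCA stood in 3 (7.89%), those of Ndufs5, Ndufb2 and Ndufb4, against 4.72%. The GC box GGGCGG, which is not in capitals, stood in 20 member promoters (52.6%) against 35.7%. A match describes the letters in these windows and not a bound site.

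Libraries held 17775898 to 20446920 counts. By Xist and Y-linked counts, replicates 1 and 2 were female and replicate 3 male in either group. Muscle fibre markers were abundant throughout, with a sum over 6 genes of 65604 to 76675 CPM in Myf5Cre-Pcyt2 muscle and 100621 to 130287 CPM in control muscle. The targeted gene Pcyt2 had 280, 328 and 272 counts in Myf5Cre-Pcyt2 muscle and 353, 277 and 277 counts in control muscle. Scaled, the levels were 14.9, 14.3 and 12.6 CPM in Myf5Cre-Pcyt2 muscle and 18.7, 16.1 and 16.0 CPM in control muscle. Every Myf5Cre-Pcyt2 library was thus below every control library, which held for 19.2% of tested genes. The log2 fold change of Pcyt2 was -0.28 ± 0.11 (SE), with an adjusted p of 0.0944 (edgeR quasi-likelihood test). The sources used here do not give which part of Pcyt2 was floxed, so a gene-wide count does not check the deletion.

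Nuclear complex I genes were lower together in Myf5Cre-Pcyt2 muscle, each by a modest amount. Of the 42 members, 34 fell and 0 rose (edgeR quasi-likelihood test, Benjamini-Hochberg adjusted p under 0.05), which is 81.0% of the members against 9.59% of all tested genes called lower and 9.02% called higher. In either direction, 18.6% of tested genes were called. At an unadjusted p under 0.05, 41 members were lower and 0 higher, and DESeq2 and limma-voom called 37 and 34 lower and 0 higher. The median log2 fold change of the members was -0.42, where the median of all tested genes was -0.00 and the middle 90% of them lay between -0.64 and 0.70. In 37 members (88.1%) every Myf5Cre-Pcyt2 library was below every control library, which held for 19.2% of tested genes, and in 0 members was every Myf5Cre-Pcyt2 library above, which held for 19.9%. The 8 members that did not pass the test were Ndufa2, Ndufa5, Ndufa1, Ndufc2, Ndufs5, Ndufaf4, Ndufaf2 and Ndufaf1.

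**Figure D1:**
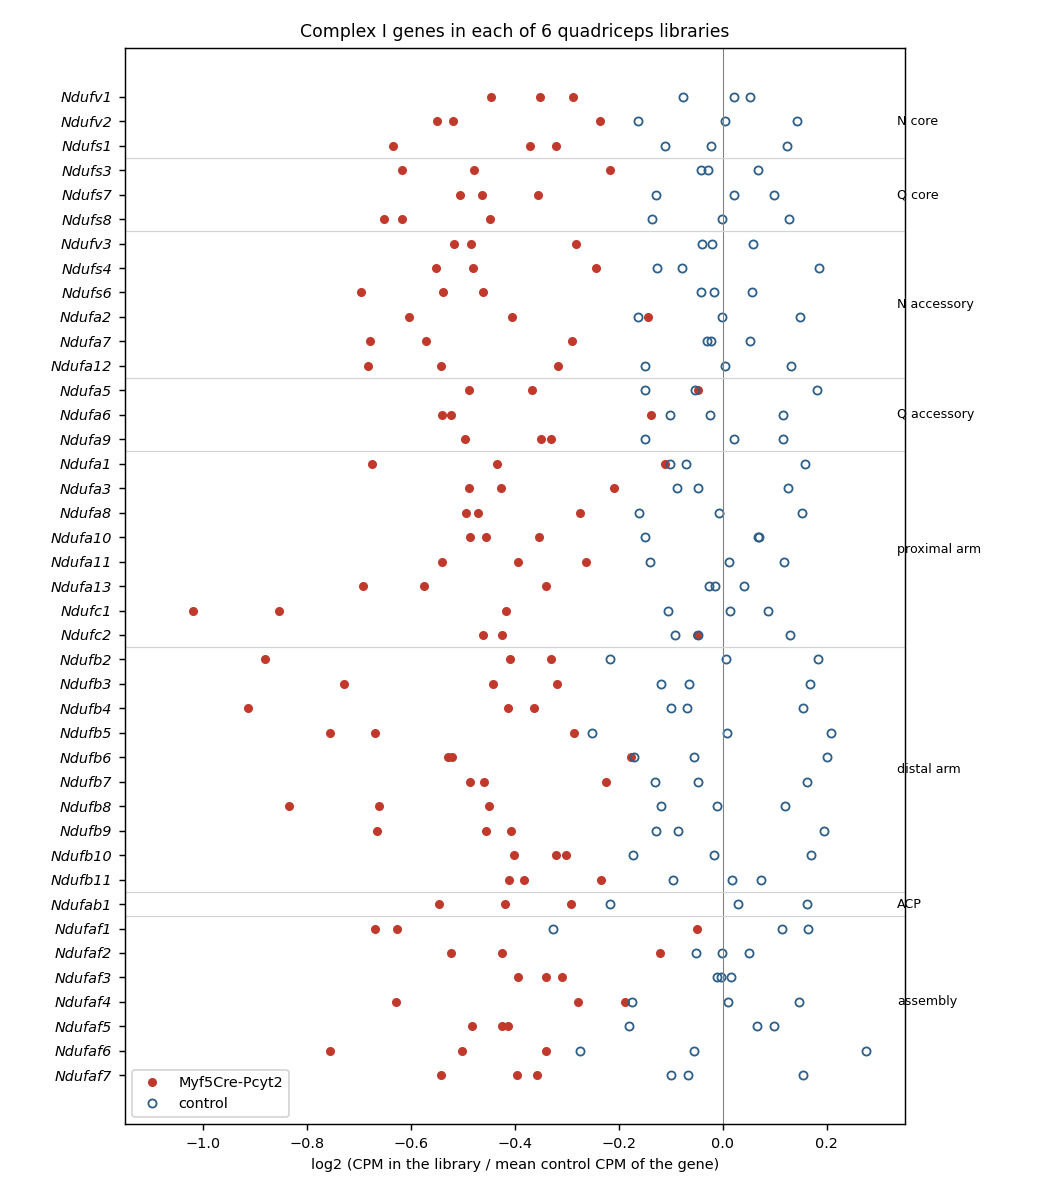
Level of each complex I gene in each library, as the log2 of its TMM-scaled CPM over the gene's mean CPM in control muscle; filled red points are the 3 Myf5Cre-Pcyt2 libraries, open blue points the 3 control libraries, and genes are grouped by role. In 37 genes all filled points lie left of all open points; Ndufs5 is not drawn.

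Leaving out Ndufs5, which is described on its own further on, the other 41 log2 fold changes lay between -0.74 (Ndufc1) and -0.29 (Ndufa5), with an SD of 0.0925 across genes. Across these 41 genes the fold change had a Pearson correlation of -0.0718 with the level in control muscle, -0.123 with the exon length and 0.126 with the GC content; these are descriptions across genes that share the same libraries. Summed over the 42 members, the level was 6608, 5539 and 5754 CPM in the Myf5Cre-Pcyt2 libraries and 7458, 8014 and 8744 CPM in the control libraries, or 5967 ± 566 against 8072 ± 645 CPM (SD, n = 3 each). The sums of the groups do not overlap. In bulk muscle, fewer fibres and less complex I RNA in each fibre cannot be told apart.

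Libraries of a group kept a common order across genes. Among the 41 genes, Myf5Cre-Pcyt2 replicate 1 was the highest of its group in 36, replicate 2 the lowest in 25 and replicate 3 the lowest in 15. Among the control libraries, replicate 3 was the highest in 36, replicate 1 the lowest in 30 and replicate 2 the lowest in 10. The members thus varied together from library to library, and their calls are not independent of each other.

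Core subunits of the N module bind NADH and pass its electrons along iron-sulfur clusters, and all 3 nuclear ones fell. Ndufv1, whose product binds NADH and the flavin FMN, had 318, 298 and 332 CPM in Myf5Cre-Pcyt2 muscle and 385, 412 and 421 CPM in control muscle. Its groups did not overlap, and it fell by 0.36 ± 0.09 on the log2 scale (SE, adjusted p = 0.0241, edgeR). Ndufv2, the iron-sulfur partner of Ndufv1, had 408, 328 and 336 CPM in Myf5Cre-Pcyt2 muscle and 429, 482 and 531 CPM in control muscle. Myf5Cre-Pcyt2 replicate 1 came close to control replicate 1, and the gene fell by 0.43 ± 0.12 (adjusted p = 0.0326). Ndufs1, the large subunit that carries several of the clusters, had 493, 397 and 476 CPM in Myf5Cre-Pcyt2 muscle and 570.0, 671 and 606 CPM in control muscle. It fell by 0.44 ± 0.12 (adjusted p = 0.0266), to 73.9% of the mean level in control muscle. These 3 calls depended on the libraries included: with control replicate 2, Myf5Cre-Pcyt2 replicate 2 or Myf5Cre-Pcyt2 replicate 3 left out 0 of 3 passed, and with control replicate 3 left out 1 of 3 passed, Ndufs1.

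The Q module takes the electrons to ubiquinone, and its 3 core subunits among the members also fell. Ndufs8, which holds iron-sulfur clusters and whose promoter carries the ETS letters, read on the other strand, as shown above, had 131, 113 and 116 CPM in Myf5Cre-Pcyt2 muscle and 162, 178 and 195 CPM in control muscle. The groups were well apart, and Ndufs8 fell by 0.57 ± 0.10 (adjusted p = 0.00554), to 67.4% of control muscle. Ndufs7, which holds the last cluster before ubiquinone, had 181, 168 and 163 CPM in Myf5Cre-Pcyt2 muscle and 212, 235 and 248 CPM in control muscle. It fell by 0.44 ± 0.09 (adjusted p = 0.0120). Ndufs3, a scaffold of the module without a cofactor, had 92.2, 76.9 and 69.9 CPM in Myf5Cre-Pcyt2 muscle and 104, 105 and 112 CPM in control muscle. The control libraries lay within a few CPM of each other while the Myf5Cre-Pcyt2 libraries spread more widely, and Ndufs3 fell by 0.43 ± 0.11 (adjusted p = 0.0206). Ndufs8 passed with each library left out in turn, whereas Ndufs7 and Ndufs3 did not pass without Myf5Cre-Pcyt2 replicate 2 or without replicate 3.

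Accessory subunits of the N module fell in 5 of 6 cases, with a median log2 fold change of -0.46. Ndufs6, a zinc-binding subunit added late in assembly, had 93.5, 79.4 and 88.7 CPM in Myf5Cre-Pcyt2 muscle and 127, 125 and 134 CPM in control muscle. It had the smallest adjusted p of all 42 members, 0.00414, and fell by 0.56 ± 0.09 to 67.7% of control muscle. Its promoter carries the YY1 letters at the start codon, as printed above. Ndufa7, a subunit of the matrix arm, had 89.7, 73.9 and 68.5 CPM in Myf5Cre-Pcyt2 muscle and 108, 107 and 114 CPM in control muscle. It fell by 0.50 ± 0.10 (adjusted p = 0.0108). Ndufa12, Ndufv3 and Ndufs4 fell by 0.51, 0.42 and 0.42. Ndufa2 had a log2 fold change of -0.37 and an adjusted p of 0.0612, and its groups overlapped. Without Myf5Cre-Pcyt2 replicate 2 the group kept 1 call, Ndufs6, and without Myf5Cre-Pcyt2 replicate 3 it kept 2, Ndufs6 and Ndufa7.

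Of the 3 accessory subunits of the Q module and the adjoining matrix arm, 2 fell. Ndufa9, a member of the short-chain dehydrogenase family that binds NADPH, had 295, 263 and 291 CPM in Myf5Cre-Pcyt2 muscle and 335, 377 and 402 CPM in control muscle. It fell by 0.39 ± 0.10 (adjusted p = 0.0252). Ndufa6, an LYR-motif protein that holds an acyl carrier protein on the arm, had 179, 137 and 136 CPM in Myf5Cre-Pcyt2 muscle and 184, 194 and 214 CPM in control muscle. Myf5Cre-Pcyt2 replicate 1 was just below control replicate 1, and Ndufa6 fell by 0.39 ± 0.12 with an adjusted p of 0.0461, close to the threshold. Ndufa5 had the log2 fold change nearest 0 of the 34 subunits other than Ndufs5. It had 198, 158 and 146 CPM in Myf5Cre-Pcyt2 muscle and 197, 184 and 232 CPM in control muscle. Myf5Cre-Pcyt2 replicate 1 lay among the control libraries, and the log2 fold change was -0.29 ± 0.13 (adjusted p = 0.139). In this group 0 of 3 passed when control replicate 2 or 3, or Myf5Cre-Pcyt2 replicate 2 or 3, was dropped.

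The proximal membrane arm, next to the matrix arm, had 9 accessory subunits, of which 6 fell. Ndufc1, a small membrane subunit, had the lowest fold change of all members: 169, 111 and 125 CPM in Myf5Cre-Pcyt2 muscle and 209, 227 and 239 CPM in control muscle. Replicate 1 stood above the other Myf5Cre-Pcyt2 libraries, yet below every control library, and Ndufc1 fell by 0.74 ± 0.14 (adjusted p = 0.00769), to 59.9% of control muscle. Ndufa13, also known as GRIM-19 and needed for assembly of the complex in mice, had 208, 177 and 163 CPM in Myf5Cre-Pcyt2 muscle and 271, 261 and 259 CPM in control muscle. It fell by 0.53 ± 0.10 (adjusted p = 0.00879), to 69.3% of control muscle. Ndufa10, Ndufa8, Ndufa11 and Ndufa3 fell by 0.43, 0.41, 0.39 and 0.37. Ndufa1 (-0.39) and Ndufc2 (-0.30) did not pass, with adjusted p of 0.069 and 0.107, and the groups overlapped in Ndufc2. Ndufs5, the remaining member of this arm, did not pass either and is described further on. Both Ndufc1 and Ndufa13 passed with each library left out in turn, and they were the 2 calls of this arm left when Myf5Cre-Pcyt2 replicate 2 or 3 was dropped. Without control replicate 3 the arm had 3 lower calls, Ndufc1, Ndufa13 and Ndufa10, and Ndufs5 was called higher. Without control replicate 2 the arm had 4 lower calls.

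All 10 accessory subunits of the distal membrane arm fell, with a median log2 fold change of -0.50. Ndufb8 had 208, 159 and 179.7 CPM in Myf5Cre-Pcyt2 muscle and 262, 282 and 309 CPM in control muscle. The groups were clearly apart, and Ndufb8, a subunit often followed as a marker of assembled complex I, fell by 0.64 ± 0.11 (adjusted p = 0.0061), to 64.2% of control muscle. Ndufb9, an LYR-motif subunit that holds the other acyl carrier protein, had 263, 219.7 and 254 CPM in Myf5Cre-Pcyt2 muscle and 318, 328 and 398 CPM in control muscle. Control replicate 3 stood above the other libraries, and Ndufb9 fell by 0.50 ± 0.12 (adjusted p = 0.0153), to 70.5% of control muscle. The other 8, Ndufb2, Ndufb3, Ndufb4, Ndufb5, Ndufb6, Ndufb7, Ndufb10 and Ndufb11, fell by 0.34 to 0.56. Their adjusted p lay between 0.0191 (Ndufb3) and 0.0491 (Ndufb10). Ndufb8 alone passed without Myf5Cre-Pcyt2 replicate 2, and 4 of the 10 passed without its replicate 3. Dropping control replicate 2 left 4, and dropping control replicate 3 left 3.

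**Figure D2:**
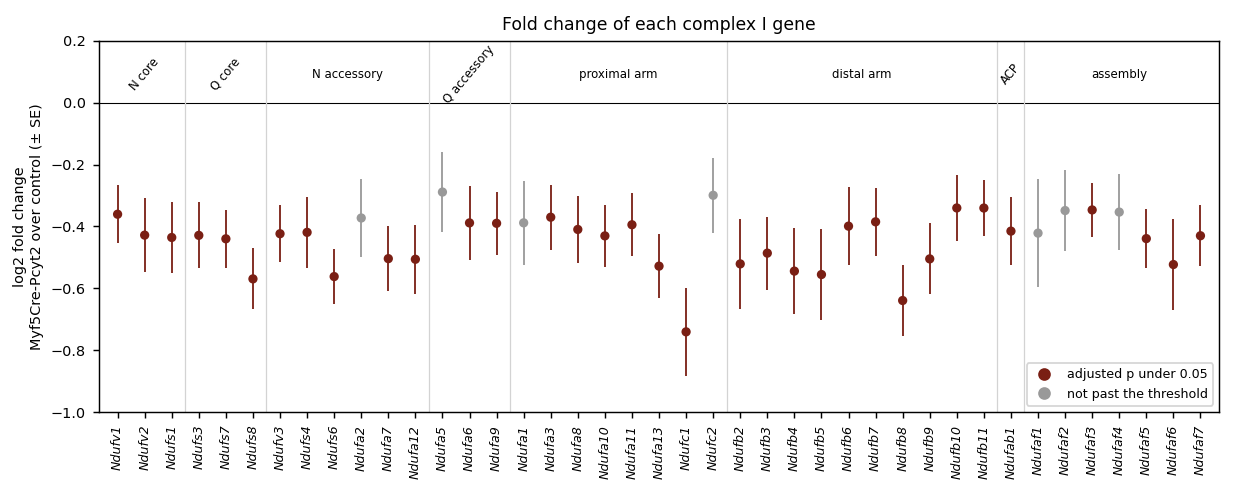
Log2 fold change of each complex I gene in Myf5Cre-Pcyt2 over control muscle with its standard error from the fit, grouped by role; dark red points are past an adjusted p of 0.05 and grey points are not. The 41 genes drawn all lie between -0.74 and -0.29; Ndufs5, at 1.12, is not drawn.

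Ndufab1 encodes the mitochondrial acyl carrier protein, which sits in complex I through LYR-motif partners such as Ndufa6 and Ndufb9 and also serves mitochondrial fatty acid synthesis. It had 36.4, 30.5 and 33.3 CPM in Myf5Cre-Pcyt2 muscle and 38.3, 45.4 and 49.8 CPM in control muscle. The groups did not overlap, although control replicate 1 was near the Myf5Cre-Pcyt2 libraries, and Ndufab1 fell by 0.42 ± 0.11 (adjusted p = 0.0276). This call was lost when control replicate 2 or 3, or Myf5Cre-Pcyt2 replicate 2 or 3, was left out.

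The 7 assembly factors fell in 4 cases, and their median log2 fold change of -0.42 was that of the members as a whole. Ndufaf3 and Ndufaf4 act together early, on the Q module. Ndufaf3 had 13.8, 14.7 and 14.4 CPM in Myf5Cre-Pcyt2 muscle and 18.4, 18.04 and 18.1 CPM in control muscle. Its control libraries had the smallest SD of the assembly factors, 0.169 CPM, and it fell by 0.35 ± 0.09 (adjusted p = 0.0224). Ndufaf4 had 57.2, 42.1 and 53.7 CPM in Myf5Cre-Pcyt2 muscle and 57.7, 65.6 and 72.2 CPM in control muscle. Myf5Cre-Pcyt2 replicate 1 nearly met control replicate 1, and Ndufaf4 did not pass (log2 fold change -0.35 ± 0.12, adjusted p = 0.0693).

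Ndufaf5 hydroxylates an arginine of NDUFS7 in human cells. It had 24.1, 23.2 and 24.3 CPM in Myf5Cre-Pcyt2 muscle and 28.6, 33.9 and 34.7 CPM in control muscle, and fell by 0.44 ± 0.09 (adjusted p = 0.0126). Its promoter holds the NRF-1 letters in capitals above. Ndufaf7, a methyltransferase that in human cells modifies an arginine of a Q module core subunit, had 21.3, 18.7 and 20.7 CPM in Myf5Cre-Pcyt2 muscle and 25.5, 26.0 and 30.4 CPM in control muscle. It fell by 0.43 ± 0.10 (adjusted p = 0.0158). Ndufaf6, needed for the early membrane assembly around the mitochondrially encoded ND1 in human cells, had 22.0, 16.5 and 19.7 CPM in Myf5Cre-Pcyt2 muscle and 23.0, 26.8 and 33.7 CPM in control muscle. The control libraries spread widely, and Ndufaf6 fell by 0.52 ± 0.15 (adjusted p = 0.0326).

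Ndufaf1, part of the complex that assembles the membrane arm, had 44.5, 29.0 and 29.8 CPM in Myf5Cre-Pcyt2 muscle and 36.7, 51.6 and 49.8 CPM in control muscle. Myf5Cre-Pcyt2 replicate 1 exceeded control replicate 1, and the log2 fold change of -0.42 ± 0.17 did not pass (adjusted p = 0.113). Ndufaf2, a paralog of the subunit Ndufa12 that in human cells holds its place before the N module joins, had 10.0, 7.60 and 8.13 CPM in Myf5Cre-Pcyt2 muscle and 10.5, 10.9 and 11.3 CPM in control muscle. Its groups did not overlap, but its log2 fold change of -0.35 ± 0.13 did not pass (adjusted p = 0.0881), while Ndufa12 fell by 0.51 ± 0.11 (adjusted p = 0.0139). Whether the paralogs differ in their change was not tested. Among the assembly factors 0 passed when Myf5Cre-Pcyt2 replicate 2 was dropped, 1 when its replicate 3 was, and 2 when control replicate 2 was.

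By the median over genes, assembly factors were present at a lower level than the subunits they help to join, although the ranges overlapped. Levels were divided by the merged length of all annotated exons of a gene, which can exceed the length of any single transcript. For Ndufab1 this length was 6883 bases, while its transcript in the pseudogene search had 3479 bases. The median over the 7 assembly factors was 13.1 CPM per kb in Myf5Cre-Pcyt2 muscle and 16.7 CPM per kb in control muscle. Over the 34 subunits other than Ndufs5 the median was 95.1 CPM per kb in Myf5Cre-Pcyt2 muscle and 138 CPM per kb in control muscle. The subunits themselves ran from Ndufab1, at 4.85 and 6.47 CPM per kb in Myf5Cre-Pcyt2 and control muscle, to Ndufb10, at 285 and 360.4 CPM per kb. Ndufaf2 was the lowest assembly factor at 2.88 and 3.66 CPM per kb, and Ndufaf1 the highest at 22.9 and 30.7 CPM per kb.

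Ndufs5 stood apart, and its values were chosen for description after they were seen. It encodes an accessory subunit of the proximal arm and lies at chr4:123712710-123718202 (GRCm38). It had 3, 431 and 109 counts in Myf5Cre-Pcyt2 muscle and 3, 3 and 190 counts in control muscle. Libraries of either group were thus near 0 or above 100, and the log2 fold change of 1.12 ± 1.19 did not pass (adjusted p = 0.541, edgeR). It was 5.56 (adjusted p = 0.0497) without control replicate 3 and -0.49 (adjusted p = 0.859) without Myf5Cre-Pcyt2 replicate 2, and without the filter on low counts it passed at 1.13 (adjusted p = 1.19e-08). A processed pseudogene on another chromosome, BC002163 at chr16:42955631-42955949, matched the Ndufs5 transcript at 99.4% identity over 319 of its 680 bases. It had 766, 41 and 203 counts in Myf5Cre-Pcyt2 muscle and 741, 561 and 330 counts in control muscle. Where Ndufs5 was near 0 the copy was high, so Ndufs5 held 0.39%, 91.3% and 34.9% of the summed counts in Myf5Cre-Pcyt2 muscle and 0.403%, 0.532% and 36.5% in control muscle.

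**Figure D3:**
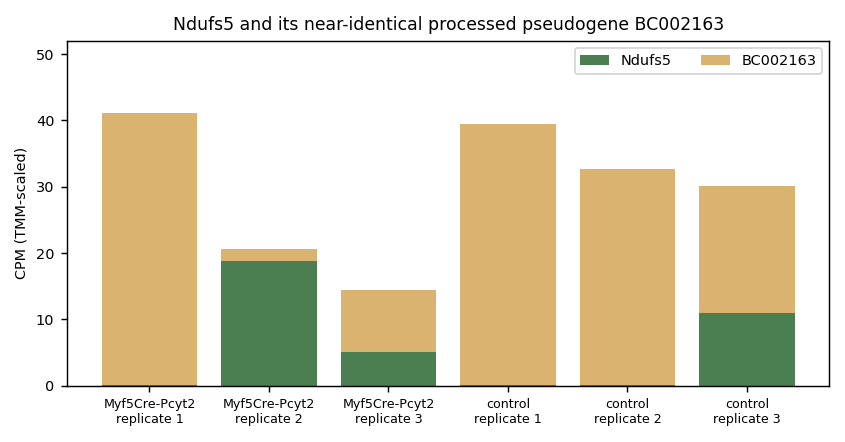
TMM-scaled CPM of Ndufs5 (green) stacked with that of its processed pseudogene BC002163 (tan) in the 3 Myf5Cre-Pcyt2 and the 3 control libraries. The division between the genes varies within each group, from 0.39% to 91.3% of the sum counted as Ndufs5 in Myf5Cre-Pcyt2 muscle and from 0.403% to 36.5% in control muscle.

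The sum of Ndufs5 and BC002163 was less erratic than either gene, at 41.1, 20.6 and 14.4 CPM in Myf5Cre-Pcyt2 muscle and 39.4, 32.7 and 30.1 CPM in control muscle. Myf5Cre-Pcyt2 replicate 1 had the highest sum and the other Myf5Cre-Pcyt2 libraries the lowest. BC002163 by itself had a log2 fold change of -0.83 ± 0.70 (adjusted p = 0.428). The sources used here do not say how reads that map to several places were counted, so the level of Ndufs5 is uncertain. Of the members, 8 had a pseudogene copy of at least 95% identity over at least 150 bases, and the copies other than BC002163 had at most 13 counts in any library. Exons of 17 members overlapped another annotated gene, on the same strand in 3 (Ndufb2, Ndufb8 and Ndufb9) and on the opposite strand in 15, and without a stated strand setting those counts are uncertain to that extent.

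The mitochondrial genome encodes the 7 core subunits of the membrane arm. Of these, 5 were tested and 3 fell, with a median log2 fold change of -0.49 and a range of -0.61 to 0.05. All genes of the mitochondrial genome together held only 0.344% to 0.529% of the counts of a library. Without Myf5Cre-Pcyt2 replicate 2 the 3 calls became 0, and without any 1 of control replicate 2, control replicate 3 and Myf5Cre-Pcyt2 replicate 3 they became 1. The gene of a proton-pumping subunit, mt-Nd5, had 543, 419.5 and 497 CPM in Myf5Cre-Pcyt2 muscle and 633, 738 and 727 CPM in control muscle, and fell by 0.52 ± 0.12 (adjusted p = 0.0159). Another pumping subunit, mt-Nd4, had 359.7 ± 40.6 CPM in Myf5Cre-Pcyt2 muscle and 504 ± 55.5 CPM in control muscle (SD, n = 3 each) and fell by 0.49 (adjusted p = 0.0201, edgeR). Counts of mt-Nd3 and mt-Nd4l were at or near 0 in every library and were not tested.

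Other known assembly factors, without an Ndufaf name, were lower in 6 of 9 tested genes, with a median log2 fold change of -0.41, and in 2, 3 and 4 without Myf5Cre-Pcyt2 replicate 2, Myf5Cre-Pcyt2 replicate 3 and control replicate 2. Ecsit, a partner of Ndufaf1 in assembling the membrane arm, had 54.9, 46.4 and 54.1 CPM in Myf5Cre-Pcyt2 muscle and 76.3, 92.9 and 79.6 CPM in control muscle. It fell by 0.68 ± 0.10 (adjusted p = 0.00378). Dmac2, a distal arm factor, had 20.97 ± 0.274 CPM in Myf5Cre-Pcyt2 muscle and 28.4 ± 1.20 CPM in control muscle (SD, n = 3 each) and fell by 0.44 (adjusted p = 0.00701, edgeR).

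Genes of the other oxidative phosphorylation complexes were lower as well. In complex II, 2 of 4 tested genes fell, with a median log2 fold change of -0.42; Sdhb and Sdhc, its iron-sulfur subunit and one of its membrane anchors, fell by 0.57 and 0.51. In complex III, 7 of 9 fell (median -0.51), among them the core protein gene Uqcrc1 by 0.66 and the ubiquinone-binding subunit gene Uqcrq by 0.64. In complex IV, 9 of 14 fell (median -0.49), among them Cox6a2 by 0.71 and Cox7a1 by 0.56, both subunits of the heart and muscle form of cytochrome oxidase. In complex V, the ATP synthase, 3 of 14 fell (median -0.34), among them Atp5d by 0.49 and Atp5e by 0.59, subunits of the stalk that turns in the enzyme. In complexes II to V 0 genes rose with edgeR, at an unadjusted p under 0.05 or with DESeq2 or limma-voom, although DESeq2 called 11 genes of complex V lower. Without Myf5Cre-Pcyt2 replicate 2 the calls were 1, 4, 3 and 0 in complexes II, III, IV and V, and without its replicate 3 they were 1, 4, 3 and 0. In complex V they were 7 without Myf5Cre-Pcyt2 replicate 1, 5 without control replicate 1 and 1 without control replicate 3.

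**Figure D4:**
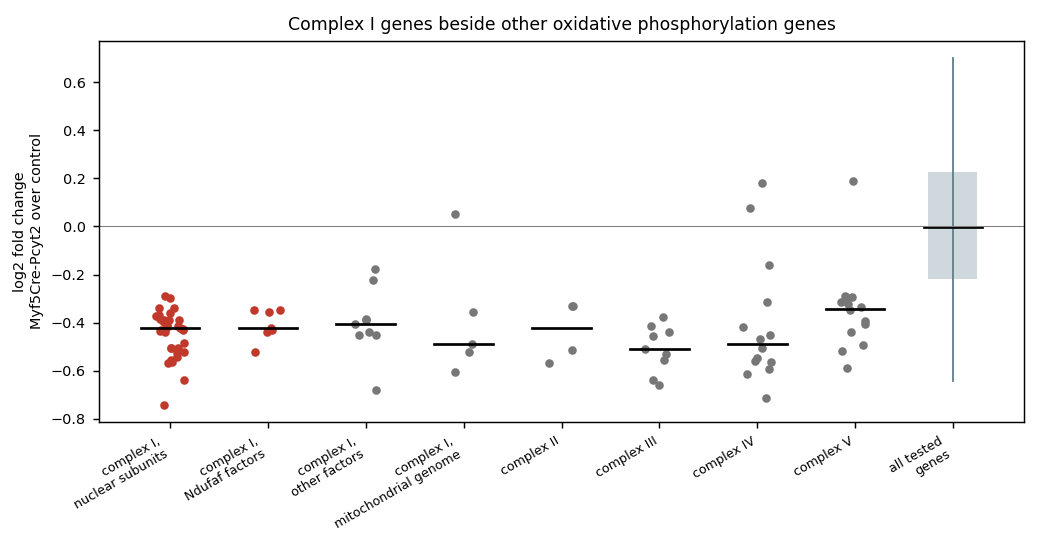
Log2 fold change in Myf5Cre-Pcyt2 over control muscle of complex I genes (red) and of other oxidative phosphorylation genes (grey), 1 point per tested gene with a bar at the median of the group; the box at the right spans the middle 50% and the line the middle 90% of all tested genes. The medians of the complexes lie between -0.51 and -0.34 and the median of all tested genes at -0.00; Ndufs5 is not drawn as a point.

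Set against the other complexes or against muscle markers, complex I RNA overlapped between the groups. The summed complex I level divided by that of complexes II to V was 0.330, 0.325 and 0.324 in Myf5Cre-Pcyt2 muscle and 0.324, 0.327 and 0.334 in control muscle, or 0.326 ± 0.00346 against 0.328 ± 0.00526 (SD, n = 3 each). The groups overlapped in this ratio, and their means differed by less than either SD. The summed complex I level was also divided by that of the 6 muscle fibre markers. This ratio was 0.0862, 0.0844 and 0.0844 in Myf5Cre-Pcyt2 muscle and 0.0741, 0.0615 and 0.0855 in control muscle. The means were 0.0850 ± 0.00103 and 0.0737 ± 0.0120 (SD, n = 3 each). The groups overlapped through control replicate 3, and the other control libraries were below every Myf5Cre-Pcyt2 library. Both ratios rest on sums in which abundant genes weigh most. In Myf5Cre-Pcyt2 replicate 1, complex V gave 10655 of the 19998 CPM of complexes II to V. In the same library Acta1 gave 34752 of the 76675 CPM of the muscle fibre markers.

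Markers of cell types were read beside these results. Of the 6 muscle fibre markers 4 fell (1 without Myf5Cre-Pcyt2 replicate 2 or 3, 2 without control replicate 2), with a median log2 fold change of -0.66; the creatine kinase gene Ckm had 11985, 9828 and 10368 CPM in Myf5Cre-Pcyt2 muscle and 18589, 25702 and 17369 CPM in control muscle. The 5 slow-fibre markers summed to 824 to 1176 CPM in Myf5Cre-Pcyt2 muscle and 399 to 1026 CPM in control muscle. With edgeR 0 of the 5 passed and 3 were higher at an unadjusted p under 0.05, DESeq2 called 0 and limma-voom 1, and without control replicate 3 all 5 were called higher by edgeR. With a covariate for sex, edgeR called 4 of the 5 higher, and without the filter on low counts it called 5. Of 4 tested brown fat markers 2 fell, Cox7a1 and Ppara, both of which muscle also expresses (4 without control replicate 2, and 1 with any other library dropped), and the sum was 265 to 333 CPM in Myf5Cre-Pcyt2 muscle and 399 to 537 CPM in control muscle. Cox7a1 made up most of it, and without Cox7a1 the sum was 21.96 to 22.96 CPM in Myf5Cre-Pcyt2 muscle and 12.1 to 133 CPM in control muscle, with the groups overlapping. The defining brown fat gene Ucp1 had 8.22, 7.20 and 7.11 CPM in Myf5Cre-Pcyt2 muscle and 75.5, 1.80 and 30.9 CPM in control muscle, and Elovl3 was near 0 throughout. Schwann cell markers rose in 3 of 5 cases (sum 406 to 568 CPM against 275 to 334 CPM in control muscle). Fibroblast markers rose in 1 of 5 (11517 to 13130 CPM against 8372 to 10905 CPM), and satellite cell markers in 1 of 3. Of 4 erythroid markers 1 rose, 2 without control replicate 3, and 0 when control replicate 1 or 2, or Myf5Cre-Pcyt2 replicate 1 or 3, was dropped. White fat, endothelial and macrophage markers had 0 called by edgeR, DESeq2 or limma-voom in 5, 4 and 4 genes, and 1, 0 and 1 at an unadjusted p under 0.05 with edgeR. The part of these cell types in the lower complex I level was not tested.

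How many members passed depended on the libraries. Of the 42, 5 fell when Myf5Cre-Pcyt2 replicate 2 was dropped, 10 when its replicate 3 was, and 38 when its replicate 1 was. Dropping control replicates 1, 2 and 3 in turn gave 35, 17 and 17. The count of all tested genes called lower also moved, from 1411 with every library kept. It was 424, 641 and 1286 without Myf5Cre-Pcyt2 replicates 2, 3 and 1. Without control replicates 1, 2 and 3 it was 1448, 699 and 1118. The median log2 fold change of the members stayed between -0.50 and -0.35 in these fits. Scaling by library size alone, which moves the median of all tested genes by 0.21 on the log2 scale, left 5 members lower and a median of -0.22, and under it all called genes were split into 499 lower and 3225 higher, against 1411 and 1328 with TMM. An offset for GC content and length left 23 members lower with a median of -0.34. The log2 fold change of 41 members, all but Ndufs5, was below 0 under each of the 16 alternatives, and Ndufc1 and Ndufb8 passed the threshold under each, with adjusted p of at most 0.0382 and 0.0327.

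**Figure D5:**
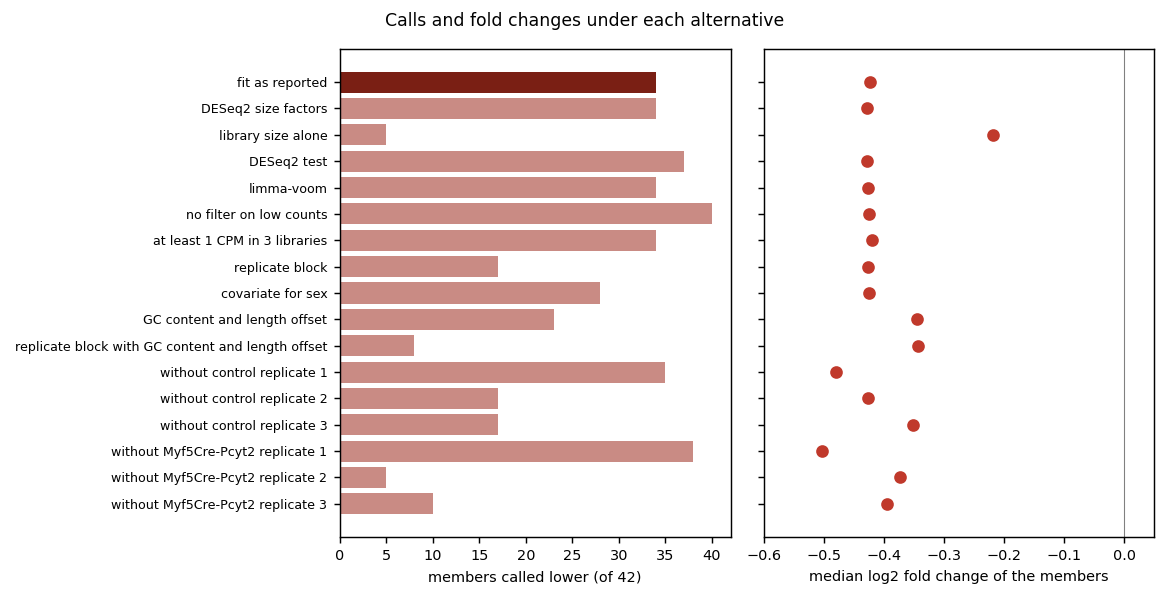
Number of the 42 complex I genes called lower in Myf5Cre-Pcyt2 muscle (left, bars) and the median log2 fold change of the members (right, points) in the fit as reported and under each of 16 alternatives. The count ranges between 5 and 40 and the median between -0.50 and -0.22, below 0 in every fit.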

How the data were processed

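The values are raw counts per Ensembl gene, deposited as a single table of 6 quadriceps libraries with no unused sample column. Per the submitters' processing notes, the tools were Subread 1.6.2 with featureCounts, Bowtie2 2.3.4.1 and Trim Galore 0.5.0, and the build GRCm38/mm10, with no role or order stated. Per the labels' protocols, each library was made from 1.3 µg of total RNA. Not given in the sources used here are the annotation release, strand setting, layout and treatment of multi-mapping reads. The members, gene lists and tests were chosen with earlier results of these data known.

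Symbols and positions came from GENCODE M21. Genes were kept with filterByExpr, scaled with TMM and compared with edgeR 4.0.16 (quasi-likelihood test, two-sided, Benjamini-Hochberg adjustment over the 14715 tested genes, threshold 0.05) in R 4.3.3. Levels are TMM-scaled CPM computed here, given per library or as mean ± SD with n = 3. Fold changes are Myf5Cre-Pcyt2 over control. Alternatives used DESeq2 1.42.0, limma 3.58.1 (voom), other scalings and filters, a covariate for sex, a replicate block, an offset for GC content and length (loess, span 0.5), and each library left out in turn. Pseudogene copies were found with BLAST+ 2.17.0. Tables and figures used Python 3.11.15, pandas 2.3.3 and matplotlib 3.10.9.

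Library totals lay between 17775898 and 20446920 counts, and no pair of libraries agreed within sampling noise. Named were the 2 members of each role with the smallest p (all in roles of up to 3, and all assembly factors), the subunit nearest 0 and at most 2 genes of each other list. Ndufs5 falls outside that rule, and marker genes were given as sums with defining genes beside them.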

Additional observations from a re-analysis of the deposited data

How the results depend on the processing

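The 34 members called lower were 5 with library size alone, 17 with a replicate block, 8 with the block and the GC content and length offset together, and between 5 and 38 with 1 library left out. The 0 members called higher were 1, Ndufs5, without a filter on low counts, and between 0 and 1 with 1 library left out. The 2739 genes called in all were 1731 with the replicate block, 1420 with the block and the offset, and between 846 and 2785 with 1 library left out. Without Myf5Cre-Pcyt2 replicate 2 the log2 fold change of Ndufs5 was -0.49 against 1.12, and over the fits with 1 library left out its adjusted p ran from 0.0497 to 0.859. The causes were not tested. DESeq2 size factors, DESeq2, limma-voom, both filters, the covariate for sex and the offset alone gave between 23 and 40 members lower. Ndufs6, Ndufs8 and Ndufa13 passed under 15 of the 16 alternatives; with the block and the offset together their adjusted p were 0.0607, 0.0569 and 0.0618.

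Same-numbered libraries had correlations of -0.111, -0.174 and 0.0182 in their deviations from the group means, and differently numbered ones -0.0632 to 0.164. With 3 libraries per group, these correlations cannot settle whether libraries were paired, for example by litter. All members but Ndufs5 had at least 174 counts in every library. Counts near 0, as in Ndufs5, mt-Nd3 and mt-Nd4l, give no usable level.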
